A study of Mus musculus with 2 samples.

Results

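Venous endothelial cells of the mouse brain are described here from 2 single-cell RNA libraries. A cell was counted as venous when its unique molecular identifiers (UMIs, each standing for 1 captured transcript) met a fixed rule. Cells with fewer than 1000 UMIs or 500 genes, or with more than 10% of UMIs from mitochondrial genes, were left out first. A venous cell had at least 5 UMIs of the endothelial genes Cldn5, Pecam1, Flt1, Cdh5 and Ly6c1, at most 2 UMIs of the mural genes Rgs5 and Vtn, no UMI of the leukocyte gene Ptprc and fewer than 3 UMIs of Plvap, a gene of fenestrated vessels. It also had at least 3 UMIs of Slc38a5, Vwf, Ackr1, Lcn2 and Nr2f2 together, and no fewer of them than of the arterial genes Gkn3, Bmx, Sema3g and Vegfc. The 607 cells chosen by these UMI counts are among 3713 endothelial cells, 19161 cells of any kind past the filters and 36026 deposited barcodes. Because measured counts chose the cells, every comparison of venous with other endothelial cells below is a description.

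The 325 cells in the first library are from adult mice labelled IL34LacZ/LacZ, and the 282 in the second are from adult mice labelled IL34LacZ/+, so both genotypes carry a lacZ allele of Il34, the gene of interleukin-34, and there is no wild-type library. Each library pooled populations sorted from whole brain: endothelial cells taken with CD31, mural cells and fibroblasts with CD13 and CD140a, astrocytes with ACSA-2, and border-associated macrophages and microglia with CD11b and F4/80. How many animals were pooled, and of which sex, the labels do not say. There is 1 library per genotype, so no test between genotypes was possible, and each 95% interval covers counting error only and says nothing of how animals or sorts vary.

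Il34 itself had 453 UMIs in the IL34LacZ/LacZ library, or 7.56 CPM (UMIs per 1000000 UMIs of the cells compared, interval 6.88 to 8.29), and 339 UMIs in the IL34LacZ/+ library, or 6.57 CPM (5.89 to 7.31). It was thus not lower in the library labelled homozygous. The labels do not say which exons the lacZ cassette replaced, and a 3′ tag outside them checks nothing. Venous cells held 9 and 4 of these UMIs. The 2 libraries are therefore called homozygous-labelled and heterozygous-labelled throughout, and every direction between them rests on those labels. They held 95505407 and 87394167 UMIs in all, and 103 barcodes occurred in both, 2 of them on homozygous-labelled venous cells and 0 on heterozygous-labelled ones.

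Veins and postcapillary venules collect blood from the capillary bed, and in the brain they are the segment where leukocytes adhere and cross. Their endothelium is known for adhesion molecules such as VCAM-1 and ICAM-1, for receptors that sense interleukin-1, and for the storage of von Willebrand factor, while capillary endothelium carries more of the lipid and nutrient transporters of the blood-brain barrier. The transcription factor COUP-TFII, encoded by Nr2f2, maintains venous identity and represses the Notch pathway of arteries.

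The genes that chose the cells were carried by overlapping sets of them. They lie on 5 chromosomes of mouse build GRCm38: Slc38a5, an amino acid transporter, on X from 8271133 to 8280179 on the plus strand, Vwf, the clotting and platelet-binding protein of Weibel-Palade bodies, on 6 from 125546774 to 125686679 on the plus strand, Nr2f2 on 7 from 70351944 to 70366735 on the minus strand, Ackr1, the atypical chemokine receptor of venules, on 1 from 173331886 to 173333750 on the minus strand, and Lcn2, the acute-phase protein lipocalin-2, on 2 from 32384633 to 32388252 on the minus strand. A Vwf UMI was found in 71.1% of homozygous-labelled and 74.1% of heterozygous-labelled venous cells, an Nr2f2 UMI in 70.8% and 67.0%, and a Slc38a5 UMI in 64.3% and 68.8%. Lcn2 was found in 20.9% and 23.05%, and Ackr1 in 17.5% and 16.3%. Almost every Ackr1-bearing cell also carried Vwf, 56 of 57 in the homozygous-labelled and 45 of 46 in the heterozygous-labelled library, beside 71.1% and 74.1% of all venous cells. So did most Lcn2-bearing cells, 59 of 68 and 56 of 65. The rule asks for at least 3 UMIs of the 5 genes together, so part of this overlap is built in.

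The remaining endothelial cells are called arterial, Plvap-high or, where neither the venous nor the arterial sum sufficed, cells with neither sum, of which there were 1335 and 1338. A UMI of these genes was also found in some cells that should lack them. Free RNA, doublets and misplaced cells cannot be told apart here, and their parts were not measured. Among cells with at least 10 UMIs of microglial genes, P2ry12 and Tmem119 among them, which should lack all 5, Slc38a5 was found in 1.88% and 1.53%, Vwf in 2.05% and 1.37% and Ackr1 in 0.455% and 0.644%, at a median depth of 4321.5 and 3921.5 UMIs against 3567 and 3481 in venous cells. Nr2f2, at 9.67% and 6.84%, and Lcn2, at 5.12% and 2.98%, were found in more of these cells. The microglial cells were not cleared of endothelial or neutrophil genes. In the homozygous-labelled library 1 of them held 78.1% of their Ackr1 UMIs. Cells with at least 20 UMIs of the neutrophil genes S100a8 and S100a9 had Lcn2 in 88.3% and 82.0%. Neutrophils are known to make it. Arterial cells, which had more UMIs of the 4 arterial genes and at least 3 of them, carried Slc38a5 in 1.27% and 4.50% and Vwf in 46.8% and 41.4%. Ackr1 was found in 0 of 79 and 0 of 111 arterial cells, which by a floor of 3 counts allows shares of cells with a UMI of up to 3.80% and 2.70% (exact upper limits 4.56% and 3.27%).

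**Figure D1:**
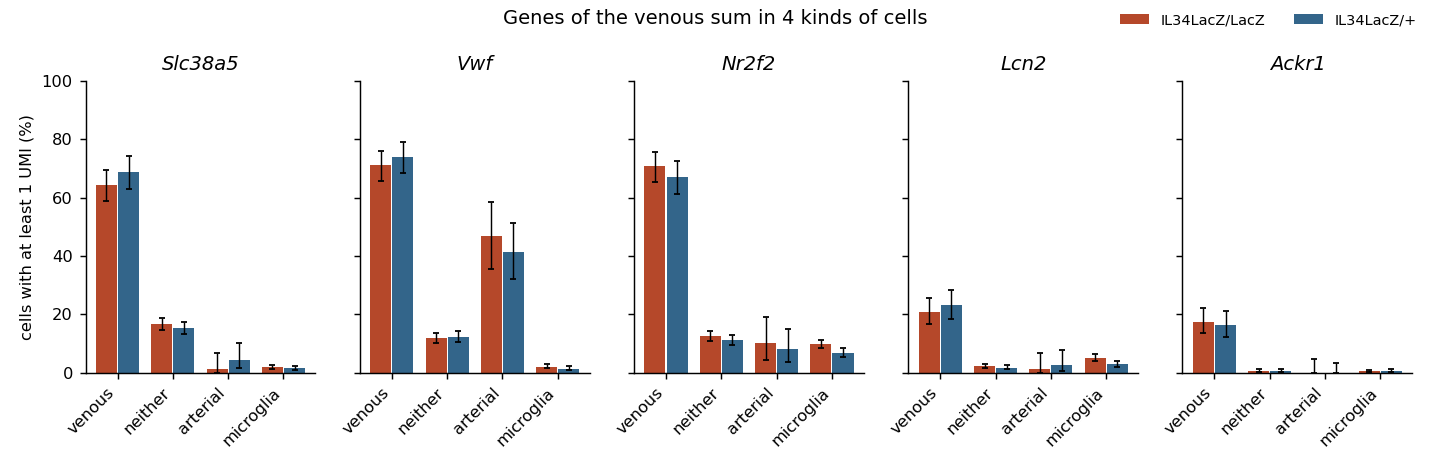
Share of cells with at least 1 UMI (percent) of each of the 5 genes of the venous sum, in venous cells, endothelial cells with neither sum, arterial cells and the microglial gate; bars are the homozygous-labelled (red) and heterozygous-labelled (blue) libraries and lines are exact 95% binomial intervals. Venous cells are high by construction, Vwf is also found in 46.8% and 41.4% of arterial cells, and Ackr1 is found in 17.5% and 16.3% of venous cells, but in 0 of 79 and 0 of 111 arterial cells.

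A venous sum of exactly 3, just inside the threshold, was held by 77 homozygous-labelled and 78 heterozygous-labelled cells, and a sum of 10 or more by 81 and 72. A sum of 2, just outside it, was held by 144 and 160 of the endothelial cells with neither sum. All 5 genes were found together in 22 and 16 cells, and only 1 of them in 76 and 52.

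Not every cell that met the rule was mainly endothelial. The 5 endothelial genes made up under 0.5% of the UMIs of 76 homozygous-labelled (23.4%) and 59 heterozygous-labelled (20.9%) venous cells, and these cells held 53.3% and 43.5% of all venous UMIs. They were deep, with a median of 10983.5 and 7865 UMIs. At least 10 UMIs of 8 fibroblast markers were found in 40 and 22 of them, and at least 10 UMIs of choroid plexus epithelial markers other than Ttr in 12 and 10. One or both kinds reached 10 UMIs in 49 and 31 of them, and the rest had fewer. Some cells below 0.5% had high venous sums without fibroblast UMIs. Examples are a homozygous-labelled cell at 0.495% with a sum of 74 and a heterozygous-labelled cell at 0.496% with a sum of 27. How many of the cells below 0.5% are venous endothelium was not measured. Cells that entered by Nr2f2 alone, 41 and 24 in number, mostly lay below 0.5%, 33 and 18. Nr2f2 is also known in fibroblasts and other mesenchymal cells.

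**Figure D2:**
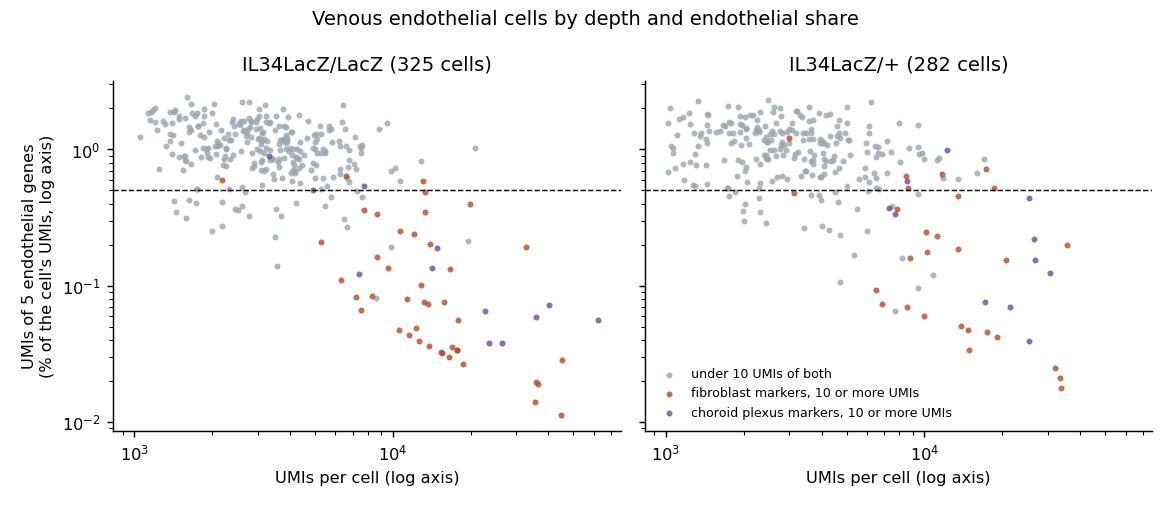
Each point is 1 venous endothelial cell, with its UMIs on the x axis and the share of them from Cldn5, Pecam1, Flt1, Cdh5 and Ly6c1 on the y axis (both log axes), for the homozygous-labelled library on the left and the heterozygous-labelled one on the right. Below the dashed line at 0.5% lie 76 and 59 cells, most of those with 10 or more fibroblast UMIs (red) or choroid plexus UMIs (purple) among them.

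All results were therefore also computed for the 249 homozygous-labelled and 223 heterozygous-labelled cells at or above 0.5%, called endothelium-rich here, a threshold chosen after the data were seen. It cuts through a continuous range, with 26 and 30 cells between 0.4% and 0.6%. In endothelium-rich cells Cldn5, the main claudin of the barrier, was found in 100% and 99.6%. Cldn5 is 1 of the 5 genes that set this threshold, so its presence there is largely built in. The 10 mural markers summed to 36.4 and 36.9 CPM. Fibroblast markers summed to 232 and 345 CPM, against 2716 and 1633 in the cells below 0.5%. Other cell types' RNA remained. Choroid plexus markers, Ttr included, summed to 5612 and 5364 CPM, against 75938 and 83214 below 0.5%. Microglial markers summed to 438 and 195 CPM, more than the 317 and 163 below 0.5%. Erythroid markers summed to 3368 and 226 CPM, with 62.6% of the homozygous-labelled UMIs in 1 cell. A still narrower set of 228 and 209 cells also had fewer than 10 UMIs of each of 12 other cell types' marker lists, Ttr not counted. The 6 lymphatic markers summed to 17.7 and 27.7 CPM in endothelium-rich cells. In the homozygous-labelled ones 3 were detected, with Prox1, Mmrn1 and Ccl21a at 0, and in the heterozygous-labelled ones 5 were, with Reln at 0 and 33.3% of the UMIs in 1 cell.

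Venous cells made up 17.7% (15.97 to 19.5) of the homozygous-labelled and 15.03% (13.4 to 16.7) of the heterozygous-labelled endothelial cells. The ratio of the shares was 1.18, with an interval of 1.02 to 1.36. Of endothelium-rich cells they made up 16.3% and 13.6%. After every cell was thinned to 1000 UMIs the shares were 6.48% and 5.74%, and the ratio of 1.13 had an interval of 0.873 to 1.46, which holds 1. Venous cells were deeper than the other endothelial cells in both libraries, 3567 and 3481 UMIs in the median against 1976 and 1871.5 in cells with neither sum. The yield of the CD31 sort for each vessel segment, which can set such shares, was not measured.

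Beyond the genes that chose them, venous cells were compared with the endothelial cells with neither sum, a remainder whose capillary share was not measured. Venous cells held more Vcam1, Icam1, Il1r1, Ptgs2 and Nrp2 and less Cxcl12, Mfsd2a and Rgcc than those cells. A gene was called when it was at least 2-fold apart with an interval without 1 in both libraries and had at least 100 UMIs in each. Of 7219 genes measured, 49 (0.679%) were called higher and 98 (1.36%) lower in all venous cells, and in endothelium-rich cells 45 (0.856%) higher and 53 (1.01%) lower of 5257. Called in both were 17 (0.323%) and 34 (0.647%). Of 21 measured venous and venule genes outside the rule, 8 were called higher, among them Nrp2, Il1r1, Lrg1, Tmem252, Icam1, Vcam1 and Adgrg6, and none lower. Among endothelium-rich cells 10 of 19 were higher and Tgfb2, a transforming growth factor, was lower.

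Vcam1, the adhesion molecule for leukocyte integrin alpha-4, stood at 757 CPM in endothelium-rich venous cells and 41.4 in the cells with neither sum of the homozygous-labelled library, 18.3-fold apart (14.8 to 22.7), and at 609 and 51.5 in the heterozygous-labelled library, 11.8-fold (9.73 to 14.5). Icam1, which binds the leukocyte integrin LFA-1, stood at 128 against 27.7 and at 168 against 29.0 CPM. Both were higher in each library. Of 13 measured adhesion and transmigration genes these were the 2 called, and the list's median ratios were 0.926 and 0.914 in all venous cells and 1.04 and 0.976 in endothelium-rich ones. The selectins that start leukocyte rolling were near the floor: Selp had 6 and 1 UMIs and Sele 3 and 14 UMIs in all endothelium-rich venous cells, and 0 in the cells with neither sum.

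Il1r1, the signalling receptor of interleukin-1, stood at 260 CPM in venous cells against 27.3 in cells with neither sum in the homozygous-labelled library, and at 194 against 24.1 in the heterozygous-labelled one. Ptgs2, the inducible cyclooxygenase, stood at 228 against 10.1 and at 234 against 9.66. Pla2g4a, the phospholipase that frees arachidonic acid for it, was at 200 against 43.0 and at 234 against 40.6. Both genes were called higher, Ptgs2 by 22.7-fold and 24.2-fold. Il6st, the shared signalling chain of the interleukin-6 receptor family, was 2.93-fold and 2.36-fold higher, called in endothelium-rich cells alone. Of the NF-kappaB and acute-phase list, 5 of 11 measured genes were called higher and none lower in all venous cells, beside 0.679% higher over all genes. Icam1, Vcam1, Lrg1 and Il1r1 among them are already counted in the venous list, and Socs3 alone is not. Lrg1, an acute-phase glycoprotein of venules, stood at 75.0 CPM in endothelium-rich venous cells against 0.804 in such cells with neither sum, and at 141 against 1.61. It had too few UMIs in the endothelium-rich homozygous-labelled cells to be called there.

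Adgrg6, an adhesion G protein-coupled receptor, stood at 131 against 3.22 and at 128 against 2.82, 40.8-fold and 45.4-fold. Nrp2, a co-receptor for semaphorins and VEGF-C that marks veins, stood at 438 against 84.0 and at 488 against 82.1. Wnt5a, a non-canonical Wnt ligand, was 5.98-fold and 5.76-fold higher, Myof, a membrane repair protein, 8.62-fold and 9.85-fold, and Tgm2, a transglutaminase, 3.95-fold and 3.71-fold. Csf1, which encodes the other ligand of the interleukin-34 receptor, stood at 127 against 40.6 and at 99.1 against 45.5, called in endothelium-rich cells alone. Ch25h, which makes 25-hydroxycholesterol, had 56 and 97 UMIs in endothelium-rich venous cells at 61.8 and 112 CPM, against 1.61 and 1.21, too few to be called by the rule.

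Of the 20 leading genes in all venous cells, 8 were not called in endothelium-rich cells. Some kept their excess at fewer UMIs, such as Eln, the elastin gene, at 68.4 CPM in venous cells against 11.7, and at 84.2 against 10.1. The collagen gene Col1a1 did not, with 30.9 CPM in venous cells against 42.2 in cells with neither sum of the homozygous-labelled library, although 100.3 against 20.5 in the heterozygous-labelled one.

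Of 17 measured capillary genes 6 were called lower and Net1 higher in all venous cells, and 5 and Net1 in endothelium-rich ones. Cxcl12, a chemokine of the capillary bed, stood at 1120 CPM in venous and 4462 in the other cells of the homozygous-labelled library, 0.251-fold (0.235 to 0.268), and at 876 and 4487 in the heterozygous-labelled one, 0.195-fold (0.181 to 0.210). Mfsd2a, the lipid transporter that holds transcytosis low, stood at 105 against 258 and at 113 against 235. Rgcc, a cell cycle regulator, stood at 92.7 against 321 and at 98.0 against 408, and Ivns1abp at 70.6 against 264 and at 53.0 against 208. Hey1, a Notch target, stood at 12.1 against 50.3 and at 9.22 against 38.2, and Unc5b, a netrin receptor, at 12.1 against 66.3 and at 11.5 against 55.5. These are arterial genes, and both were also lower in veins than in the cells with neither sum. Of 19 measured arterial genes outside the rule, they were the 2 called lower in all venous cells, beside 1.36% over all genes. Eln, given above and also an arterial gene, was called higher. In endothelium-rich cells 5 of 17 were called lower and 0 higher, beside 1.01% and 0.856% over all genes.

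Of 27 measured blood-brain barrier transporters, 4 were called lower in all venous cells and 2, Mfsd2a and the lipoprotein receptor gene Lrp8, in endothelium-rich ones, and none higher. Their median ratios were 0.641 and 0.657 in all venous cells, beside 0.949 and 0.963 over all genes, and 0.847 and 0.726 in endothelium-rich cells, beside 0.959 and 0.947. Slc2a1, the glucose transporter, stood at 1285 against 1212 and at 1220 against 1224 CPM, and Abcb1a, the drug efflux pump, at 1270 against 1282 and at 1105 against 1171. Of 11 junction genes 0 were called in either direction, with Ocln, the gene of occludin, at 268 against 303 and at 270 against 277 and the scaffold gene Tjp1 at 756 against 617 and at 696 against 643. The share of cells with neither sum that are venules too shallow to reach 3 UMIs was not measured.

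**Figure D3:**
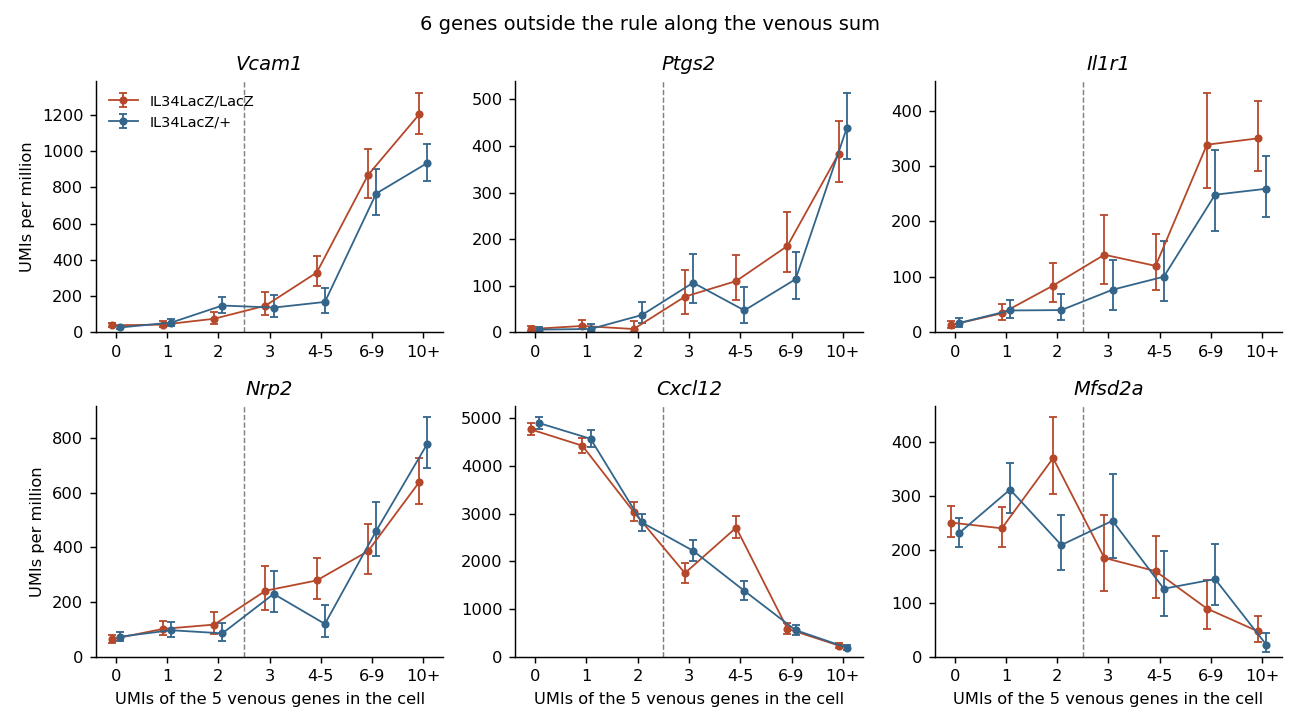
CPM (y axis) of 6 genes outside the rule in endothelium-rich cells binned by their UMIs of the 5 venous genes (x axis), with exact 95% intervals, in the homozygous-labelled (red) and heterozygous-labelled (blue) libraries; the dashed line marks the rule's threshold of 3. Vcam1, Ptgs2, Il1r1 and Nrp2 are highest and Cxcl12 lowest at sums of 10 or more.

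The levels of these genes differed along the venous sum, not in even steps. Vcam1 stood at 74.1 and 147 CPM in homozygous-labelled and heterozygous-labelled cells with a sum of 2, at 146 and 136 with a sum of 3, and at 1204 and 935 with a sum of 10 or more. Ptgs2 stood at 6.74 and 36.8 at a sum of 2, at 76.3 and 106 at 3, and at 384 and 439 at 10 or more. Cxcl12 stood at 3041 and 2817 at a sum of 2, at 1755 and 2224 at 3, and at 236 and 192 at 10 or more. Median depth moved with the sum, 1652.5 and 1605.5 UMIs at a sum of 0 and 4684 and 5136 at 10 or more, and its part in these levels was not tested.

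Against arterial cells, 44 genes (1.23%) were called higher and 52 (1.46%) lower of 3570 in all venous cells, and in endothelium-rich cells 58 (2.9%) and 36 (1.8%) of 2003. Il1r1 stood at 260 CPM in endothelium-rich veins and 15.02 in arteries of the homozygous-labelled library, and at 194 and 5.74 in the heterozygous-labelled one. Nrp2 stood at 438 against 65.1 and at 488 against 14.4, and Tfrc, the transferrin receptor gene, at 446 against 50.1 and at 409 against 141. Vcam1 set veins and arteries apart far less, at 757 against 571 and at 609 against 373. Lower in veins were Stmn2, a regulator of microtubules, at 21.0 against 611 and 25.4 against 531, and Mgp, a calcification inhibitor of arterial wall, at 983 against 5161 and 1110 against 3858. Eln, higher in veins than in cells with neither sum, was lower than in arteries, at 68.4 against 275 and 84.2 against 169. Endothelium-rich arterial cells numbered 69 and 104, which limits these levels.

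Among endothelium-rich venous cells, those with at least 2 UMIs of Vwf and Ackr1 held more Vcam1, Nrp2 and Adgrg6 and less Spock2, Car4 and Tfrc than those with none. In all venous cells the first 3 genes were again called higher, and the other 3 were not called. Both genes of this split belong to the rule, so the split overlaps with the venous sum used above and is not a separate view. The Vwf-bearing endothelium-rich cells were also deeper. Their median was 3272 UMIs against 2744.5 in the homozygous-labelled library and 3481 against 2575 in the heterozygous-labelled one. The part of depth in these levels was not tested. Cells with at least 2 such UMIs made up 67.9% (169 cells) and 62.8% (140 cells) of endothelium-rich venous cells, and those with none 48 cells in each library. At 1.5-fold in both libraries, 79 (6.28%) of 1257 genes were called higher and 53 (4.22%) lower. In all venous cells the counts were 395 (16.7%) and 317 (13.4%) of 2372. Vcam1 stood at 968 against 183 CPM in the homozygous-labelled and 797 against 169 in the heterozygous-labelled library, and Nrp2 at 526 against 169 and 640 against 97.3. Tmem252, a venous membrane protein gene, stood at 319 against 77.3 and 497 against 123, and Adgrg6 at 175 against 21.1 and 173 against 6.49.

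The cells without Vwf and Ackr1 were higher in Spock2, a proteoglycan of capillaries, with 1208 CPM in the Vwf-bearing cells against 3086 in the homozygous-labelled library, and 1003 against 2730 in the heterozygous-labelled one. Car4, a carbonic anhydrase of the capillary lumen, stood at 661 against 1589 and 543 against 1810. The thyroid hormone transporter gene Slco1c1 stood at 786 against 1701 and 574 against 1505, and Tfrc at 351 against 689 and 285 against 856. Ptgds, the prostaglandin D synthase gene of leptomeninges and choroid plexus, was also higher without Vwf, at 178 against 1097 and 234 against 2964, and 25.3% and 70.9% of its UMIs in the endothelium-rich cells lay in 1 cell of each library. Of the 8 genes that led this side in all venous cells, Ptgds alone was called in endothelium-rich cells. Gja1, one of the others, encodes connexin-43 of astrocytes and leptomeninges.

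Between the 2 labelled genotypes, a lower level of immediate-early genes in the homozygous-labelled library was found in each set of venous cells. The sets are nested, each narrower one a part of the wider, so their agreement is no replication. A gene was called at 1.5-fold with an interval without 1 and at least 100 UMIs over both libraries. Of 5672 genes in all venous cells, 196 (3.46%) were called higher and 112 (1.97%) lower in the homozygous-labelled library, and of 3324 in endothelium-rich cells, 98 (2.95%) and 72 (2.17%). Only 21 (0.632%) were higher and 24 (0.722%) lower in both sets. In the narrower set, where 75 (2.61%) genes were called higher and 59 (2.05%) lower of 2876, 18 of the 24 lower but 6 of the 21 higher genes were called again, and 19 and 10 of them could be measured.

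Of 24 measured immediate-early and stress genes, 9 were called lower and 0 higher in all venous cells, with a median ratio of 0.686 beside 1.01 over all genes. In endothelium-rich cells 15 of 22 were called lower, with a median of 0.567 beside 1.01 over all genes, and every one of the 22 had a ratio below 1. In the narrower set 14 of 22 were lower. Junb, an AP-1 transcription factor, stood at 406 CPM in homozygous-labelled and 1103 in heterozygous-labelled endothelium-rich venous cells, a ratio of 0.368 (0.325 to 0.415). Jun stood at 1066 and 2315, Fos at 600 and 1276, and Egr1, an early growth response factor, at 285 and 711. Zfp36, which degrades cytokine messages, stood at 260 and 594, and Dusp1, a phosphatase that ends MAP kinase signals, at 245 and 500. A Junb UMI was found in 86 of 249 homozygous-labelled and 113 of 223 heterozygous-labelled cells, and the fullest cell held 8.70% and 13.9% of its UMIs, so the difference was spread over many cells.

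The heat shock and Kruppel-like members also had ratios below 1 in endothelium-rich cells, but none of them was called. Hspb1 stood at 1433 and 1492 CPM, Klf4 at 616 and 651, and Klf2, the shear-stress factor, at 1550 and 2013, a ratio of 0.770 (0.717 to 0.827) that misses the fold needed for a call. In all venous cells Fos, Fosb and Egr1 also missed it, at ratios of 0.676, 0.668 and 0.681. Immediate-early genes are induced within minutes by growth factors, cytokines and stress. Depth and mitochondrial share were close in the 2 sets of endothelium-rich cells, with medians of 3117 and 2945 UMIs and of 5.56% and 5.35%. Each genotype was sorted and prepared as 1 library, so genotype and handling cannot be told apart for these genes. Neither was tested as a cause.

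In endothelial cells with neither sum the same genes differed less. Of 23 measured list members, 2 were called lower, Btg2 and Nr4a1, with a median ratio of 0.864, where 96 (1.39%) genes were higher and 55 (0.797%) lower of 6897. Junb stood at 255 CPM in homozygous-labelled and 340 in heterozygous-labelled cells with neither sum, a ratio of 0.749 (0.674 to 0.831), and Zfp36 at 181 and 166, a ratio of 1.09. The intervals of the Junb ratio in venous cells and in these cells do not overlap, but with 1 library each the difference between cell classes was not tested over samples. The heterozygous-labelled venous cells were the high ones: their Junb of 1103 CPM stood above 406 in homozygous-labelled veins, 255 and 340 in the other cells.

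**Figure D4:**
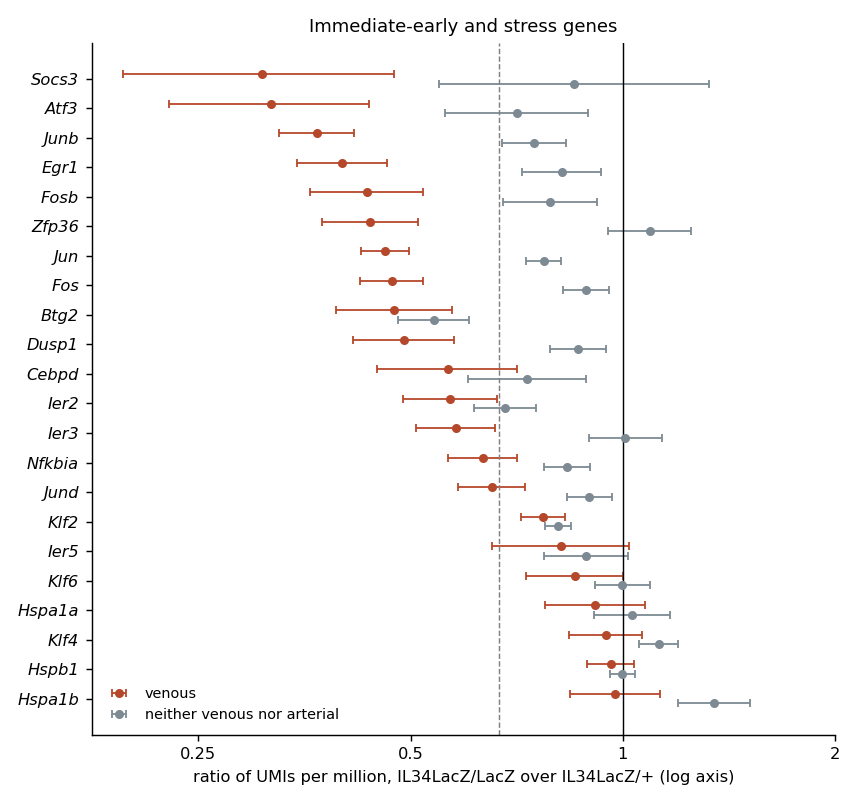
Ratio of CPM, homozygous-labelled over heterozygous-labelled (x axis, log scale), for the 22 immediate-early and stress genes measured in endothelium-rich venous cells (red) and the same genes in endothelium-rich cells with neither sum (grey), with exact 95% intervals; the dashed line marks a ratio 1.5-fold below 1. Venous ratios run below 1 for all 22 genes, from 0.308 for Socs3, and for Junb and Zfp36 lie clear of the grey points.

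Junb and Egr1 were also unequally held within the venous cells. Junb stood at 470 CPM in homozygous-labelled and 1373 in heterozygous-labelled cells with at least 2 UMIs of Vwf and Ackr1, and at 162 and 253 in cells with none. Egr1 stood at 319 and 880 in the first kind, and at 91.4 and 188 in the second. For these 2 genes the Vwf-bearing cells were higher in both libraries. Hspb1 went the other way, at 1420 and 1353 in the first kind and 1673 and 1706 in the second. Atf3, a stress-induced factor, had 39 and 144 UMIs in the Vwf-bearing cells and 3 in the others of each library, and 43.9% of its UMIs in the endothelium-rich heterozygous-labelled cells lay in 1 cell.

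Socs3, Nfkbia and Cebpd belong to the immediate-early list counted above. Socs3, the feedback inhibitor of interleukin-6 signalling, stood at 32.0 CPM in homozygous-labelled and 104 in heterozygous-labelled endothelium-rich cells, a ratio of 0.308 (0.196 to 0.473). It rests on 29 and 90 UMIs in 15 and 26 cells, with 20.7% and 20% of them in 1 cell of each library. Nfkbia, the NF-kappaB inhibitor and itself a target of that factor, stood at 576 and 910, and Cebpd at 138 and 244. Of 11 measured genes of the NF-kappaB and acute-phase list, which shares Nfkbia and Socs3 with it, 4 were called lower in endothelium-rich cells, but 6 had a ratio above 1 and the median was 1.07. Of 21 measured venous and venule genes, 3 were called lower, Lrg1, Tmem252 and Ch25h, and 0 higher, and the same 3 were called in endothelium-rich cells. Lrg1 stood at 75.0 and 141, Ch25h at 61.8 and 112 and Tmem252 at 252 and 408. After every cell was thinned to 1000 UMIs, which left 115 and 105 venous cells, the log2 ratio of Lrg1 was 0.039 and that of Tmem252 0.63, no longer below 0. The remaining venous genes were not called: Vcam1 stood at 757 and 609, a ratio of 1.24 (1.11 to 1.40), Icam1 at 128 and 168, a ratio of 0.760 (0.591 to 0.977), and Il1r1 at 260 and 194.

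The genes of the rule chose the cells, so their levels are a description. In endothelium-rich cells Slc38a5 stood at 586 CPM in the homozygous-labelled and 593 in the heterozygous-labelled library, Vwf at 1087 and 1048 and Nr2f2 at 430 and 385. Lcn2 stood at 178 and 131, with 14.9% and 6.14% of its UMIs in 1 cell. Ackr1 stood at 212 and 130, with 51 and 37 cells carrying it, and in all venous cells at 117 and 93.1.

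The genes higher in the homozygous-labelled library in both sets were led by genes of microglia and macrophages, named here after their values were seen. C1qa, which encodes a chain of complement C1q, stood at 189 and 85.3 CPM, Cx3cr1, the fractalkine receptor of microglia, at 85.0 and 28.8, and Tyrobp, a signalling adaptor of myeloid cells, at 90.5 and 28.8. These are not endothelial genes. Their cells are represented in the same sets: the 8 microglial markers, all 8 detected in each library, summed to 438 and 195 CPM in endothelium-rich venous cells, with 23.7% of the homozygous-labelled UMIs in 1 cell, and the 8 border-associated macrophage markers to 141 and 59.9. The narrower set leaves out cells by their microglial UMIs, so a fall of such genes there is built in. The ratio of C1qa was 0.973 in it, and Cx3cr1, itself a marker used, had too few UMIs to be called. Lyz2, the lysozyme gene, was still called there, at 1.97.

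Most genes of the interferon response list were not called between the labelled genotypes. Rsad2, which encodes viperin, stood at 107 CPM in homozygous-labelled and 56.5 in heterozygous-labelled endothelium-rich cells, a ratio of 1.89 (1.33 to 2.73), with 25.8% of the homozygous-labelled UMIs in 1 cell. Gbp5, a guanylate-binding protein gene outside the list, stood at 130 and 62.2, in 66 and 45 cells, and both were called in all 3 sets. Gbp4 stood at 197 and 121, called in endothelium-rich cells only. Of 25 measured interferon response genes, 4 were higher and 0 lower in all venous cells, where 3.46% and 1.97% of all genes were. In endothelium-rich cells 3 of 22 were higher and 1, Ifitm1, lower, beside 2.95% and 2.17% of all genes. The list's medians were 1.09 and 1.07, beside 1.01 and 1.01 over all genes. In the narrower set 1 of 21 was higher and 1 lower. Abundant members were not called: Ifitm3 stood at 2183 and 2174 and Ly6e at 2172 and 2027. Of MHC class I presentation, 0 of 14 and 0 of 13 were called, although B2m stood at 1421 and 1002, a ratio of 1.42 (1.30 to 1.55).

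MHC class II genes show how the cells below 0.5% bear on these counts. In all venous cells 4 of 5 measured class II genes were called higher, H2-Aa among them at 94.3 CPM in homozygous-labelled and 49.5 in heterozygous-labelled cells. In endothelium-rich cells H2-Aa stood at 13.2 and 13.8, and 0 of the 8 listed genes had enough UMIs to be measured. Likewise, of the 12 genes that led the higher side in all venous cells, 2 were called in endothelium-rich cells, the fibroblast proteoglycan gene Dcn and Plac9a, and 47.3% and 51.5% of the Dcn UMIs lay in 1 cell of each library. Bpifa1, which led them all at 924 CPM in homozygous-labelled and 1.30 in heterozygous-labelled cells, had 99.8% of its homozygous-labelled UMIs in 1 cell. The proliferation genes Top2a, with 80.9% in 1 cell, and Cenpf, with 92.7%, were of the same kind. On the lower side the haemoglobin gene Hbb-bs stood at 884 and 3117 in all venous cells, but at 1729 and 124 in endothelium-rich ones, with 53.1% of the homozygous-labelled UMIs in 1 cell.

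**Figure D5:**
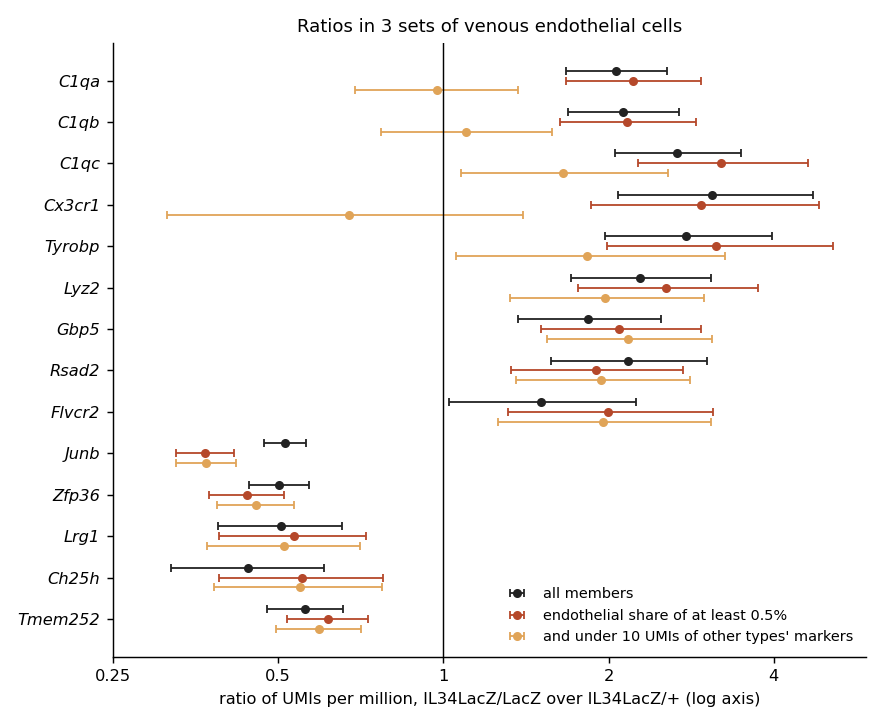
Ratio of CPM, homozygous-labelled over heterozygous-labelled (x axis, log scale), for 14 genes in all venous cells (black), in endothelium-rich ones (red) and in those that also had under 10 UMIs of each other cell type's markers (yellow), with exact 95% intervals. Junb, Zfp36, Lrg1, Ch25h and Tmem252 lie below 1 in all 3 sets, whereas C1qa lies at 0.973 in the narrowest set, which leaves out cells by their microglial UMIs.

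Other pathways of the endothelium were mostly flat between the labelled genotypes. Of 27 measured blood-brain barrier transporters 1 was called lower in all venous cells, the amino acid transporter gene Slc7a5 at 137 and 212 CPM, and in endothelium-rich cells 1 of 25, the monocarboxylate transporter gene Slc16a1 at 203 and 325. Slc2a1 stood at 1285 and 1220 and Abcb1a at 1270 and 1105 in endothelium-rich cells. Of the junction list 0 of 11, of the Wnt list 0 of 21 and of the Notch list 0 of 6 were called in all venous cells. Edn1 and Edn3, which encode endothelins, were called lower in all venous cells and not in endothelium-rich ones, at 129 and 168 for Edn1 and 59.6 and 79.5 for Edn3. Ehd2, a caveolar neck protein gene, stood at 119 and 188 and was called lower in all 3 sets. Of the chemokine list, Cxcl16 was called higher in all venous cells, 1 of 6, and Cx3cl1, the fractalkine gene, at 87.2 and 50.7, in endothelium-rich cells, 1 of 5. Csf1, the ligand shared with interleukin-34 for the receptor CSF1R, stood at 127 and 99.1, a ratio of 1.28 (0.959 to 1.71) whose interval holds 1.

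Oxidative phosphorylation, with 0 of 19 and 0 of 18 genes called and medians of 1.0003 and 0.965, gave no difference past the fold. Of the hypoxia and glycolysis list, Ddit4 and Ankrd37, both hypoxia-induced, were called lower in all venous cells, and Ankrd37 alone in endothelium-rich ones, at 43.0 and 83.0 CPM. Most other single calls in all venous cells were not repeated in endothelium-rich ones. They were Pgf, a placental growth factor gene, Tgfbi and Bgn, both matrix genes, on the higher side, and Bmp2, a bone morphogenetic protein gene, and Procr, the protein C receptor gene, on the lower side. Procr stood at 28.7 and 48.4 CPM in endothelium-rich cells and Tgfbi at 8.83 and 18.4. Both had too few UMIs there to be called. Procr stayed lower in the homozygous-labelled library, whereas Tgfbi turned round.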

How the data were processed

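Single-cell 3′ RNA libraries (10x Chromium Next GEM v3.1) were made from sorted adult mouse brain cells, 1 library per labelled genotype. Per the submitters' processing notes, Cell Ranger 5.0.0 and builds GRCm38.p6 and mm10 were used. The deposited values are raw UMI counts per gene and barcode for 25827 genes, of which 25702 gene IDs (99.516%) matched GENCODE vM21 for coordinates.

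Counts were read with Python 3.11.15 and scanpy 1.11.5, filtered and classified by the rule given in the report, and summed per library and cell class. The members and gene lists were chosen with earlier results of these data known. Scrublet marked 1218 and 1106 barcodes (6.459% and 6.442%) as doublets, which were kept, with leaving them out as an alternative. CPM divides a gene's summed UMIs by all UMIs of the same cells. Ratios have exact conditional binomial and shares exact Clopper-Pearson 95% intervals (scipy 1.17.1), which cover counting error only. A count of 0 of n cells allows 3 of n. The calling code was tested on simulated data. With 1 library per genotype no p-value was computed.

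Named genes were the 12 highest and 12 lowest called between genotypes by the interval bound nearest 1, the 20 and 15 of veins against cells with neither sum, the 8 each way within venous cells, the genes of the rule and called list members. Other genes named in the text were chosen after their values were seen, as were the 2 added alternatives, the endothelium-rich and the narrower set. A further 11 alternatives changed the filters, the rule, doublets, depth, weighting and UMI minimum. Some genes are not reported here.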

Additional observations from a re-analysis of the deposited data

How the results depend on the processing

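The share of venous cells among endothelial cells kept a ratio above 1 under every alternative run, from 1.08 to 1.25, but its interval held 1 at a mitochondrial limit of 5%, at 2000 or more UMIs, without Nr2f2, after thinning to 1000 UMIs and in the narrower set. The counts of called genes depended on the settings. Between genotypes, 196 genes were higher as reported, against 95 at a mitochondrial limit of 5%, 123 without Nr2f2, 8 after thinning, 374 with equal weight per cell, 430 at 30 or more UMIs, 98 in endothelium-rich cells and 75 in the narrower set. The 112 lower genes became 54 at the 5% limit, 29 after thinning, 250 at 30 or more UMIs, 72 in endothelium-rich cells and 59 in the narrower set. Of list members, the 16 higher became 2 after thinning, 29 at 30 or more UMIs, 4 in endothelium-rich cells and 1 in the narrower set, and the 20 lower became 9 at the 5% limit, 6 after thinning and 11 with equal weight. Against cells with neither sum, the 49 higher genes became 28 at a mitochondrial limit of 20%, 26 at 2000 or more UMIs, 91 without called doublets, 23 after thinning and 108 at 30 or more UMIs. The 98 lower genes became 44 at the 5% limit, 187 at a venous sum of 5 or more, 225 without Nr2f2, 45 after thinning, 65 with equal weight, 255 at 30 or more UMIs and 53 in endothelium-rich cells. Within venous cells, 395 and 317 genes became 79 and 53 in endothelium-rich cells.

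The median log2 ratio of the immediate-early list was -0.54 and ran from -0.84 to -0.42 over the alternatives. The following log2 ratios between genotypes turned round. After thinning, Rarres2 stood at -0.13, Dcn at -2.45, S100a6 at -1.72, Plac9a at -0.13, Ifit3 at -0.13, Tgfbi at -2.13, Hbb-bt at 1.87, Hbb-bs at 2.17, Hba-a2 at 3.57, Hba-a1 at 2.19, Ptgds at 0.38, Edn3 at 0.039, Lrg1 at 0.039 and Tmem252 at 0.63. In endothelium-rich cells, Bpifa1 and Prc1 stood at -0.063, Cyp2f2 at -3.52, Cd74 at -0.29, H2-Aa at -0.063, H2-Ab1 at -0.26, Tgfbi at -1.06, Hbb-bt at 1.41, Hbb-bs at 3.80, Hba-a2 at 4.20 and Hba-a1 at 4.52. In the narrower set, Bpifa1 stood at -0.059, Nnat at -0.20, Cd74 at -0.14, Tgfbi at -2.87, Hbb-bt at 0.45, Hbb-bs at 0.84, Hba-a2 at 0.73, Hba-a1 at 1.14 and Ptgds at 0.46. Smaller numbers of UMIs enter the thinned and narrower sets, and the cause of each other change was not tested. No paired analysis was possible because each genotype has 1 library and no test was made.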
